A study of Nasonia vitripennis x Nasonia giraulti with 6 samples.

Results

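Described here are 10 genes that the study listed as super cis with expression only or mostly from the N. giraulti (Ng) allele. The study gave this name to genes for which, in at least one hybrid sample, every informative RNA-seq read came from the allele of one species. Of the 11 genes on that list, these are the 10 whose fitted total count differed by less than 2-fold between the reciprocal crosses, out of 16505 genes in the table. All 10 passed the filter on low counts, which left 12435 genes. The genes were thus chosen by their allelic ratio, as the study measured it, and selected on the total count difference between the crosses, so values of that contrast are given below as a description and without a test. The count table holds total counts per gene, so the share of each allele was not measured here.

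Nasonia is a genus of haplodiploid parasitoid wasps, in which a father contributes to his daughters but not to his sons, so the hybrids of a species cross are its daughters. In a hybrid both alleles of a gene share one set of trans factors, and a difference between the alleles is therefore attributed to sequence or marks linked to the allele in cis. Genomic imprinting is a different case, in which an allele is expressed according to the parent that passed it on. Reciprocal crosses separate these cases where the alleles are measured, because the parent that passes on the Ng allele is exchanged between them. The species of the mother is exchanged as well. A difference in total counts therefore cannot be assigned to the parental origin of the allele or to the mother.

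The study set F1VG daughters (mother N. vitripennis, Nv, strain AsymCX and father N. giraulti strain R16A) against F1GV daughters (mother R16A and father AsymCX). For the genes described here the Ng allele was thus paternal in F1VG and maternal in F1GV. It gave all or most of their expression in the study, with some Nv reads in most of the genes. Each library was made with 2 µg of total RNA from a pool of 10 whole adult females taken 24 h after eclosion, so a library averages over 10 wasps. The labels name 3 replicates of each cross, but F1GV replicate 2 was set aside by the authors for poor mapping and was not analysed here, which leaves 3 F1VG and 2 F1GV libraries. Whole bodies were sequenced, so fewer cells of a type and less RNA per cell cannot be told apart. The whole-body label was not checked against tissue markers, since the table pairs no ID with a gene name.

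Totals ran from 35337246 to 55707560 estimated counts per library. Values are given as CPM, counts scaled for library depth with TMM factors (trimmed means of M-values, which correct for a few abundant genes), and 1 CPM corresponded to between 37.3 and 53.6 counts in a library. CPM is not scaled for gene length, so levels are compared between libraries of one gene and not between genes. Replicate 1 of both crosses stood apart from the other libraries: over all tested genes, the replicate 1 libraries did not overlap with the other 3 libraries for 71.0% of genes. Each gene is therefore compared between the crosses within replicate 1, and within replicates 2 and 3, where F1VG has 2 libraries and F1GV has 1. With 1 library per cross in replicate 1, that difference has no replicate check.

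Across both crosses the 10 genes had fitted log2 fold changes (F1VG over F1GV) between −0.56 and 0.48, with a median of −0.11, beside a median of −0.023 over all tested genes. Of the 10, 4 were above 0. This fit held no term for replicate, and replicate 1 makes up a larger part of the F1GV than of the F1VG libraries. Its values therefore mix cross with replicate too. With a term for replicate 1 against the rest, the 10 values ran from −0.55 to 0.52, with a median of −0.043. The fitted fold change was under 2-fold for all 10 genes by the rule that chose them, and for 97.3% of all tested genes. The member nearest to the limit was Nasvi2EG006005, at 1.47-fold, and outside it was the remaining gene of the Ng list, Nasvi2EG018425, annotated as a mitogen-activated protein kinase kinase kinase. Nasvi2EG018425 had 52.0, 39.5 and 38.2 CPM in F1VG, against 14.5 and 7.80 CPM in F1GV, or 3.88-fold.

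**Figure D1:**
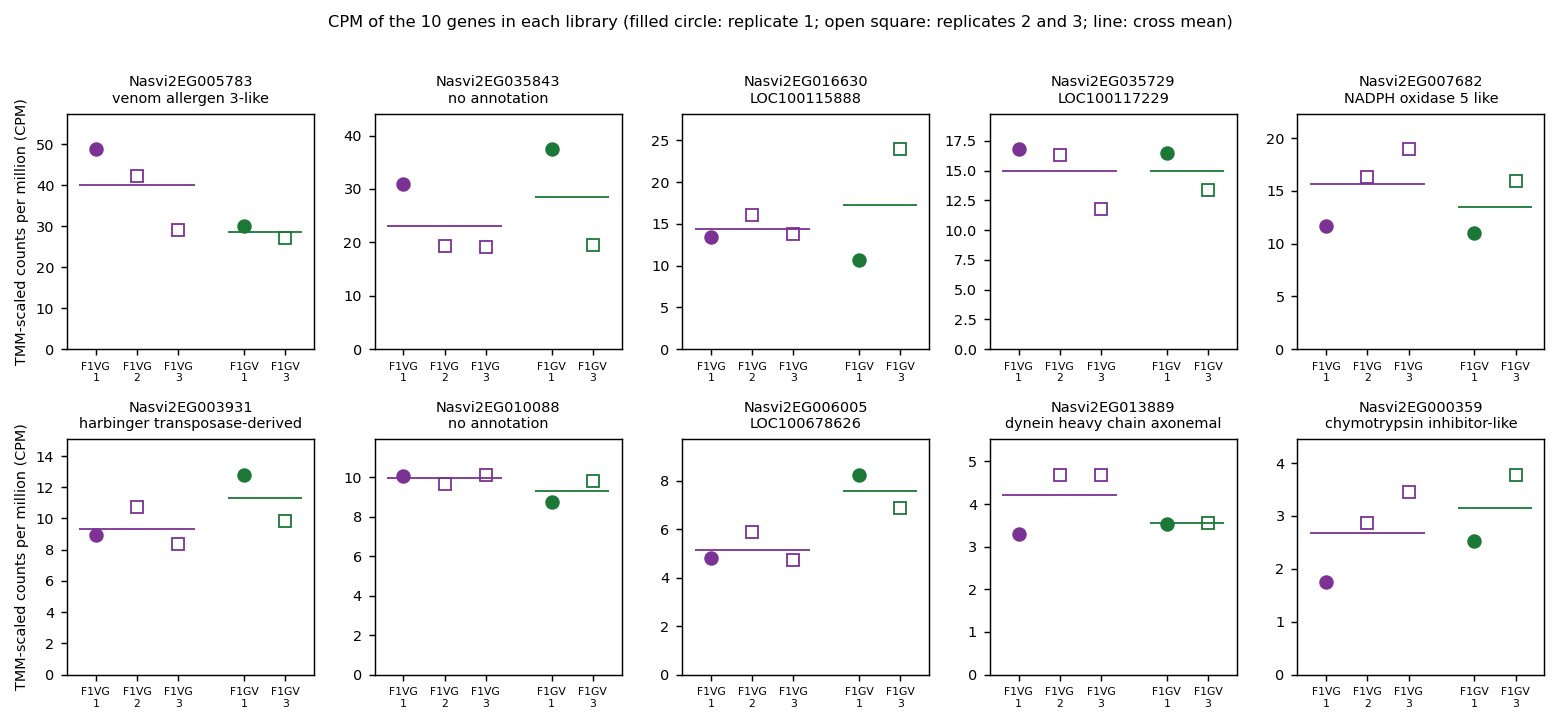
TMM-scaled CPM (y axis, from 0, a separate scale per gene) of the 10 genes in the 3 F1VG (purple) and 2 F1GV (green) libraries (x axis). Filled circles are replicate 1, open squares replicates 2 and 3, and lines the mean of each cross. In Nasvi2EG006005 the F1VG libraries (4.74 to 5.90 CPM) were all below those of F1GV (6.88 and 8.25 CPM).

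Among the genes with an annotated product, 2 belong to families of secreted proteins. Nasvi2EG005783 is annotated as venom allergen 3-like, a name taken from a family of abundant proteins of hymenopteran venoms. It had 48.7, 42.2 and 28.9 CPM in F1VG replicates 1, 2 and 3, against 30.1 and 27.1 CPM in F1GV replicates 1 and 3. The crosses overlapped, because F1VG replicate 3 was below F1GV replicate 1. F1VG averaged 40.0 ± 10.1 CPM (SD, n = 3) and F1GV 28.6 ± 2.12 CPM (SD, n = 2), which gave a log2 fold change of 0.48 (SE 0.28). Compared within replicates, F1VG was 1.62 times F1GV in replicate 1, and the F1VG 2 and F1VG 3 libraries were 1.56 and 1.07 times F1GV replicate 3.

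Nasvi2EG000359 is annotated as chymotrypsin inhibitor-like, a class of small proteins that block serine proteases. It had 1.74, 2.86 and 3.45 CPM in F1VG, against 2.53 and 3.78 CPM in F1GV. It had the lowest counts of the 10 genes, and the 65 counts in F1VG replicate 1 have an exact 95% Poisson interval of 50.2 to 82.8, which covers counting error only. The crosses overlapped, and in each cross replicate 1 was the lowest library. The log2 fold change of this gene was −0.22 (SE 0.40). Leaving out F1VG replicate 1 gave 0.0041, leaving out F1GV replicate 3 gave 0.098, and leaving out F1GV replicate 1 gave −0.48. These values and the −0.22 over all libraries mix cross with replicate. With a term for replicate 1 the log2 fold change was −0.36.

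An enzyme and a motor protein were also on the list. Nasvi2EG007682 is annotated as NADPH oxidase 5 like. The human NADPH oxidase 5 is a calcium-activated membrane enzyme that makes superoxide. Nasvi2EG007682 had 11.7, 16.3 and 18.9 CPM in F1VG, against 11.04 and 15.96 CPM in F1GV. Replicate 1 was the lowest library of both crosses, and the libraries of the crosses interleaved. The log2 fold change was 0.21 (SE 0.33), 0.12 with a term for replicate 1, and −0.022 without F1GV replicate 1. Within replicates the ratio of F1VG to F1GV was 1.06 in replicate 1 and 1.02 and 1.19 for F1VG replicates 2 and 3.

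Nasvi2EG013889 is annotated as an axonemal dynein heavy chain, the motor subunit that bends cilia and sperm tails. It had 3.30, 4.68 and 4.68 CPM in F1VG, against 3.54 and 3.55 CPM in F1GV. The F1GV libraries were nearly equal and lay between F1VG replicate 1 and the other F1VG libraries. F1VG was 0.932 times F1GV in replicate 1, and 1.32 times F1GV for both F1VG replicates 2 and 3. With between 123 and 251 counts per library, the counting error alone amounted to a coefficient of variation (CV) of 7.69%, against 17.0% observed over the 5 libraries.

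Nasvi2EG003931 is annotated as a harbinger transposase-derived nuclease. Genes of this kind descend from the transposase of Harbinger DNA transposons. It had 8.94, 10.8 and 8.34 CPM in F1VG, against 12.8 and 9.81 CPM in F1GV. The crosses overlapped, since F1VG replicate 2 was above F1GV replicate 3. F1VG was 0.699 times F1GV in replicate 1, and F1VG replicates 2 and 3 were 1.10 and 0.850 times F1GV replicate 3, so the direction differed between the F1VG libraries. The log2 fold change of Nasvi2EG003931 was −0.28 (SE 0.28). Leaving out F1GV replicate 1 gave −0.066 and leaving out F1GV replicate 3 gave −0.45, values that mix cross with replicate. The Nv list of super cis genes holds a gene with a related annotation, Nasvi2EG031633 (nuclease harbi1-like), whose expressed allele comes from the other parent. It had 9.88, 9.23 and 8.12 CPM in F1VG, against 9.07 and 7.42 CPM in F1GV. The crosses overlapped in this gene too.

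The other 5 genes have no known product: 3 are annotated as hypothetical proteins (LOC100678626, LOC100115888 and LOC100117229) and 2 as unknown. Nasvi2EG006005 (LOC100678626) was the only one of the 10 genes in which the crosses did not overlap, while 1 more joined it with upper-quartile factors (Nasvi2EG005783) or total counts (Nasvi2EG010088). With TMM factors 10.4% of all tested genes did not overlap, and 5.58% had every F1VG library lower, as in Nasvi2EG006005. It had 4.80, 5.90 and 4.74 CPM in F1VG, against 8.25 and 6.88 CPM in F1GV. F1VG averaged 5.15 ± 0.654 CPM (SD, n = 3) and F1GV 7.57 ± 0.965 CPM (SD, n = 2), which gave a log2 fold change of −0.56 (SE 0.28). F1VG was lower in both strata, at 0.582 times F1GV in replicate 1 and at 0.858 and 0.689 times F1GV replicate 3 for F1VG replicates 2 and 3.

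Nasvi2EG016630 (LOC100115888) differed between the crosses in opposite directions. It had 13.4, 16.0 and 13.8 CPM in F1VG, against 10.7 and 23.9 CPM in F1GV, so the lowest and the highest library were both F1GV. F1VG was 1.26 times F1GV in replicate 1, whereas F1VG replicates 2 and 3 were 0.670 and 0.576 times F1GV replicate 3. Single libraries decided its fitted difference: the log2 fold change was −0.26 (SE 0.39) over all 5 libraries, −0.73 without F1GV replicate 1 and 0.43 without F1GV replicate 3, and the last pair of values mixes cross with replicate.

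Nasvi2EG035729 (LOC100117229) had 16.8, 16.3 and 11.7 CPM in F1VG, against 16.5 and 13.4 CPM in F1GV. The means were nearly equal, at 14.9 CPM in both crosses, and the log2 fold change was −0.0027 (SE 0.28). Its sign was positive under every other scaling tried, at 0.0337 or less. F1VG replicates 2 and 3, at 1.21 and 0.875 times F1GV replicate 3, lay on either side of it.

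Nasvi2EG010088, with no known product, was the steadiest of the 10 genes. It had 10.1, 9.66 and 10.1 CPM in F1VG, against 8.77 and 9.83 CPM in F1GV. Its CV over the 5 libraries was 5.66%, where counting error alone gave 4.84%, and 3.36% of tested genes had a CV as low or lower. The crosses overlapped, and F1VG was 1.15 times F1GV in replicate 1 and 0.982 and 1.03 times F1GV replicate 3 in the other comparison.

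Nasvi2EG035843, also with no known product, was the only one of the 10 with fractional counts. It appears to share reads with the gene next to it in the table, Nasvi2EG035844, as judged from the counts alone. Their counts added up to 1693, 1172 and 1542 in F1VG and to 2691 and 1335 in F1GV, whole to within 0.002 counts, and Nasvi2EG035843 was given between 64.8% and 69.1% of each sum. It had 30.9, 19.4 and 19.1 CPM in F1VG, against 37.4 and 19.5 CPM in F1GV. The 3 libraries of replicates 2 and 3 were thus almost the same, and both replicate 1 libraries were higher. The sum of both genes would not depend on how shared reads were divided. It showed the same picture, with 45.4, 30.0 and 28.8 CPM in F1VG, against 54.1 and 29.8 CPM in F1GV. The log2 fold change of Nasvi2EG035843 was −0.30 (SE 0.38), and 0.25 without F1GV replicate 1, and both values mix cross with replicate. With a term for replicate 1 it was −0.13.

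The difference between the crosses was then summarised within replicates. In replicate 1 the log2 difference of CPM (F1VG over F1GV, prior count 2) ran from −0.77 to 0.69 over the 10 genes, with a median of −0.037 and 5 genes above 0. In replicates 2 and 3 it ran from −0.69 to 0.39, with a median of −0.0049 and again 5 genes above 0. The medians over all tested genes were −0.0025 in both. None of the 10 genes differed by more than 2-fold in replicate 1 (3.31% of tested genes did) or in replicates 2 and 3 (4.46% did), which the choice of genes largely fixed, since it used the same libraries and contrast. The sign of the median in replicates 2 and 3 was not stable, since scaling by relative log expression gave 0.0245, by upper quartiles 0.0284 and by total counts 0.0589.

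The size of these differences was set beside the spread between libraries of one cross. The median absolute log2 difference between the crosses was 0.30 in replicate 1 and 0.20 in replicates 2 and 3, and F1VG replicates 2 and 3 differed from each other by a median of 0.24. Over all tested genes the medians were 0.13, 0.18 and 0.17. In 3 of the 10 genes, Nasvi2EG016630, Nasvi2EG006005 and Nasvi2EG013889, the difference between the crosses in replicates 2 and 3 exceeded that between the F1VG libraries, as it did in 52.0% of all tested genes. The 3 within-replicate pairs, which use F1GV replicate 3 more than once, pointed the same way in 5 of the 10 genes and in 42.1% of all tested genes. F1VG was higher in all 3 pairs for Nasvi2EG005783 and Nasvi2EG007682 (20.9% of tested genes), and lower for Nasvi2EG035843, Nasvi2EG006005 and Nasvi2EG000359 (21.3%). Nasvi2EG010088 joined the genes higher in F1VG when scaled by upper quartiles or total counts. Nasvi2EG035843 left the genes lower in F1VG under every other scaling, with a log2 difference in replicates 2 and 3 of −0.019 as reported and between 0.0109 and 0.0454 under those scalings.

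**Figure D2:**
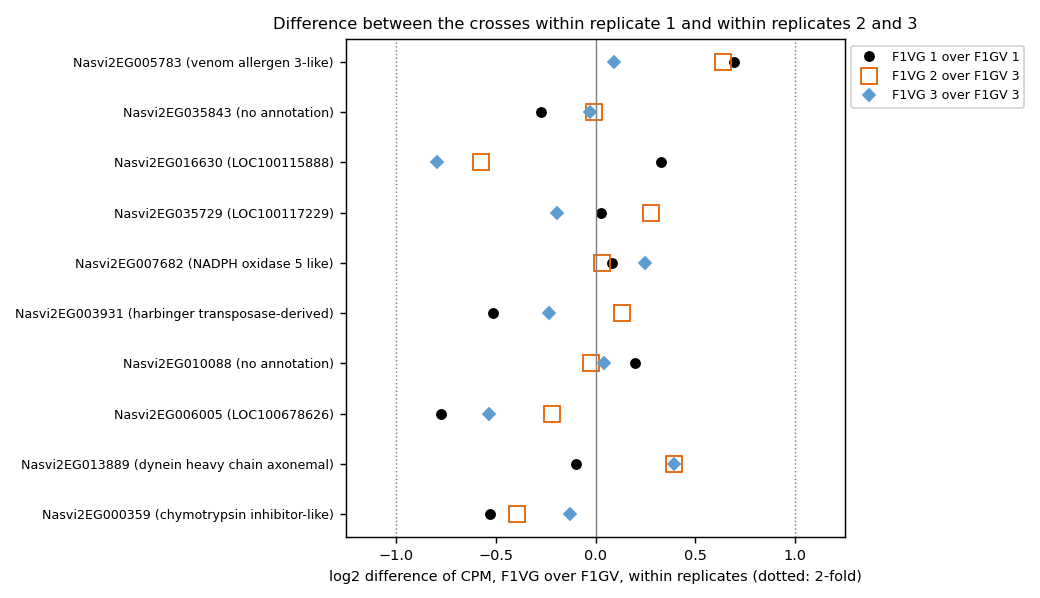
Log2 difference of CPM, F1VG over F1GV (x axis), for each of the 10 genes (y axis), within replicate 1 (black circles) and for F1VG replicates 2 (open orange squares) and 3 (blue diamonds), both over F1GV replicate 3. Dotted lines mark a 2-fold difference, which no point reached, and Nasvi2EG016630 and Nasvi2EG013889 have the replicate 1 point on the opposite side of 0 from the others.

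Whether the difference between the crosses itself differed between replicate 1 and replicates 2 and 3 was tested with an interaction term in edgeR. The choice of genes did not use this measure, but the split by replicate was chosen after the libraries had been seen to separate. Only F1VG has more than 1 library in a stratum, replicates 2 and 3, so the residual spread came from that pair alone. The p-values below therefore assume the same spread for the single libraries. Over all tested genes 54 (0.434%) passed an adjusted p of 0.05, and 0 of the 10 did. At an unadjusted p under 0.05 there were 1 of the 10, Nasvi2EG016630, and 764 of all tested genes. DESeq2 also called 0 of the 10. For Nasvi2EG016630 the log2 difference in replicate 1 minus that in replicates 2 and 3 came to 1.013 (SE 0.34), and its adjusted p from edgeR to 0.495. For the other 9 genes this value lay between −0.50 and 0.30, each with an edgeR adjusted p of 0.9995. The model has 1 residual degree of freedom, and the standard errors of the 10 genes ran from 0.29 to 0.48. The 1.013 of Nasvi2EG016630 lay well above its error but did not pass after adjustment over all tested genes.

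The replicates were next compared inside each cross, also a measure that the choice did not use. The split into replicate 1 and the rest was chosen after the libraries had been seen to separate, so no test is attached to this comparison. The 10 genes had a median absolute log2 difference of 0.38 in F1VG (replicate 1 over the mean of 2 and 3) and of 0.34 in F1GV (replicate 1 over 3), beside 0.45 and 0.53 over all tested genes. Of the 10, 0 differed by more than 2-fold the same way in both crosses, as 11.6% of tested genes did. Nasvi2EG035843 came closest, at 0.68 in F1VG and 0.94 in F1GV. Nasvi2EG007682 was lower in replicate 1 by similar amounts, at −0.59 in F1VG and −0.53 in F1GV. Nasvi2EG000359 was also lower, at −0.83 in F1VG and −0.57 in F1GV. The difference was largest among the 10 genes in Nasvi2EG016630 in F1GV, at −1.16, where it was −0.15 in F1VG.

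Replicate 1 libraries of both crosses lay on one side of the other 3 libraries in 6 of the 10 genes, beside the 71.0% of all tested genes. They were higher in Nasvi2EG035843 and Nasvi2EG035729 (35.0% of tested genes), and lower in Nasvi2EG016630, Nasvi2EG007682, Nasvi2EG013889 and Nasvi2EG000359 (36.0%). In Nasvi2EG035729, Nasvi2EG016630 and Nasvi2EG013889 the nearest libraries of the sides were closer than counting error can separate. Those libraries had 16.475 (F1GV 1) against 16.279 CPM (F1VG 2), 13.4 (F1VG 1) against 13.8 CPM (F1VG 3), and 3.5404 (F1GV 1) against 3.5535 CPM (F1GV 3). Counting error alone gave these genes CVs of 3.91%, 3.94% and 7.69%. The memberships also depended in part on the scaling. With total counts in place of TMM factors, the median difference over all tested genes moved to 0.11 in both crosses, against 0.0063 in F1VG and −0.057 in F1GV. Then 4 of the genes remained, beside 71.6% of all tested genes, Nasvi2EG016630 and Nasvi2EG013889 being lost. Nasvi2EG035843 was higher, and Nasvi2EG007682 and Nasvi2EG000359 lower, under all 4 scalings.

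**Figure D3:**
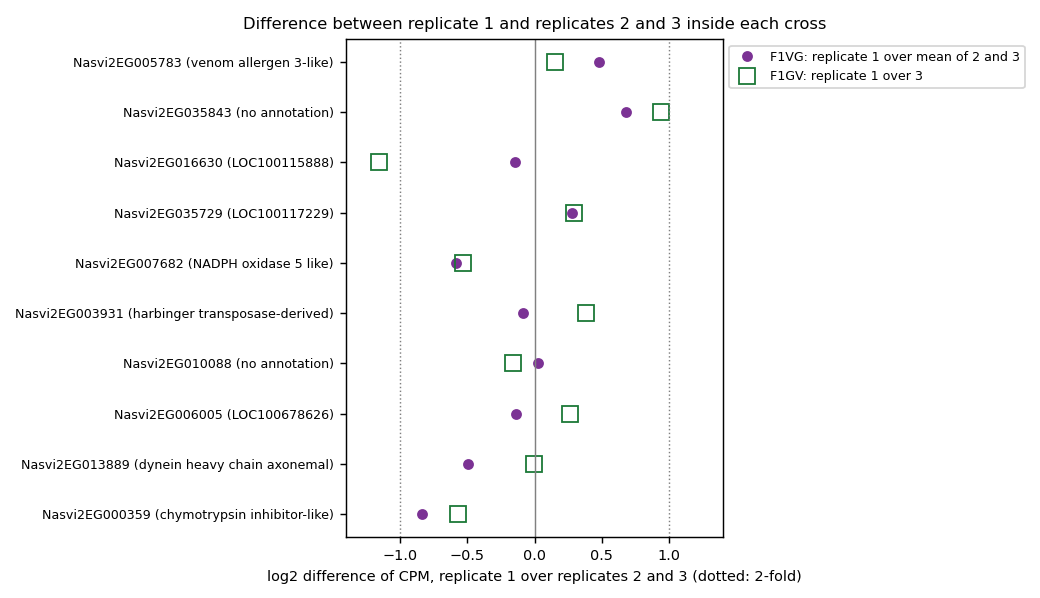
Log2 difference of CPM between replicate 1 and replicates 2 and 3 (x axis) for each of the 10 genes (y axis), in F1VG (purple circles, over the mean of replicates 2 and 3) and in F1GV (open green squares, over replicate 3). Dotted lines mark 2-fold. Nasvi2EG007682 and Nasvi2EG035729 have nearly the same value in both crosses, and only the F1GV value of Nasvi2EG016630, at −1.16, is past a line.

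The 50 super cis genes of the Nv list express only or mainly the allele that is maternal in F1VG and paternal in F1GV. They are the closest set for comparison, but they were not trimmed to a 2-fold limit. Of these, 44 were under 2-fold between the crosses, and the crosses did not overlap in 14 of 50, beside 1 of the 10 Ng genes. Past 2-fold in replicate 1 were 8 of 50 and in replicates 2 and 3 9 of 50, beside 0 of 10 in both. The Nv list had a median log2 difference of 0.081 in replicate 1 and −0.31 in replicates 2 and 3, where the Ng genes had −0.037 and −0.0049. Whether the lists differ was not tested, because the 2-fold limit fixes part of this difference. In the Nv list 4 genes share an annotation word or stem with one of the 10. Of these, Nasvi2EG019092 (venom protein m precursor) had 2.44, 9.66 and 8.98 CPM in F1VG, against 15.2 and 44.6 CPM in F1GV. Every F1VG library of this gene was below both F1GV libraries, while the crosses overlapped in Nasvi2EG005783. Nasvi2EG007568 (venom carboxylesterase-6) had 22.999, 18.3 and 22.1 CPM in F1VG, against 23.1 and 26.1 CPM in F1GV. Nasvi2EG004029 (inducible metalloproteinase inhibitor protein) had 5.53, 4.19 and 4.05 CPM in F1VG, against 5.65 and 6.12 CPM in F1GV. In Nasvi2EG004029 the F1VG libraries were thus all below those of F1GV, as in 10 of the 50 genes of the Nv list and 5.58% of tested genes. In Nasvi2EG007568 the highest F1VG and the lowest F1GV library were closer than counting error, a CV of 3.204%, can separate.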

How the data were processed

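RNA-seq libraries of whole adult females of the reciprocal crosses were analysed, grouped by cross and replicate number from the sample titles. The authors checked reads with FastQC, trimmed them with Trimmomatic, aligned them with TopHat to both species' genomes and summarised uniquely mapped reads per OGS2 gene (the official gene set) using Cufflinks, HTSeq and BEDTools. Which of these made the table is not stated, nor whether counting used strand. The deposited values are estimated counts, scaled neither for depth nor for length. Every daughter carries both alleles, but whether Nv or Ng reads were lost alike in both crosses was not tested. Annotations are those of the study's list of super cis genes. The reference gene table (assembly Nvit_psr_1.1) matched 0 of 16505 OGS2 IDs, and coordinates and sequences were not used here.

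Counts were rounded to whole numbers. Genes with a mean CPM over 1 in at least one cross were kept, TMM factors were computed on them, and CPM and fits used edgeR 4.0.16 in R 4.3.3 (quasi-likelihood test without the legacy option, Benjamini-Hochberg adjustment, threshold 0.05). Standard errors came from the F statistic. The cross fit held cross only, so its standard errors include the separation of replicate 1 from the other libraries. Log2 differences of CPM used a prior count of 2. The interaction model held cross, replicate 1 against replicates 2 and 3, and their product. The fits were run on simulated data without a shift common to the replicate 1 libraries and with less spread than the cross fit found. That check does not cover the separation seen here. Alternatives were other scalings, filters, prior counts and fold limits, DESeq2 1.42.0, terms for replicate number, and omission of each library; the summing of Nasvi2EG035843 with its neighbour was added after seeing the data. Genes named are the 10 listed, the gene just outside the limit and genes of the Nv list that share an annotation word or stem. These were harbi, venom and inhibitor. The genes, lists and tests were chosen with earlier results of these data known. The libraries are pools collected separately, and a Poisson interval covers counting error alone, as PCR copies of one molecule cannot be recognised.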

Additional observations from a re-analysis of the deposited data

Results flagged for a closer look

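Nasvi2EG016630 (LOC100115888) was higher in F1VG than in F1GV in replicate 1 and lower in both F1VG replicates 2 and 3 than in F1GV replicate 3. The log2 difference in replicate 1 minus that in replicates 2 and 3 was 1.013 (SE 0.34), and the edgeR interaction test gave an adjusted p of 0.495.

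Nasvi2EG013889 (axonemal dynein heavy chain) showed the opposite order, lower in F1VG in replicate 1 and higher in the other pairs, at −0.50 (SE 0.43), and the same edgeR test gave an adjusted p of 0.9995.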

How the results depend on the processing

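Between the crosses 3 of all tested genes were called by edgeR, against 16 with the replicate block, 85 with a term for replicate 1 and 66 with DESeq2, and from 0 to 6 without one library at a time. Calls of the 10 genes are not given, because they were chosen on this contrast. The median log2 fold change of the 10 genes was −0.12 with the block, and lay between −0.11 and 0.14 in the fits without one library, positive without F1GV replicate 1 (0.00038) or replicate 3 (0.14). Same-numbered libraries deviated together from their cross means (correlation across genes 0.828 in replicate 1 and 0.763 in replicate 3), but so did F1VG replicate 2 with F1GV replicate 3 (0.593). With 2 F1GV libraries the deviations of one mirror those of the other, so these values are not independent and establish no pairing. The count of all genes called for the interaction was 54, against 25 with relative log expression factors, 20 with total counts, 23 without a filter and 101 with DESeq2. It was 0 of the 10 in each of these. No interaction was fitted with a library left out, since a cell of the design or the residual degrees of freedom would be lost. At a limit of 1.5-fold, 1 gene in place of 0 differed the same way between replicate 1 and the rest in both crosses. The share of all tested genes at that limit was not computed, so this count cannot be set against a background. The genes in which the crosses do not overlap were 1, and 2 with upper-quartile factors (Nasvi2EG005783 added) or total counts (Nasvi2EG010088 added). They were from 2 to 6 without one library, where fewer libraries were compared. The share of all tested genes was computed only for the reported setting (10.4%), so the other counts cannot be set against a background. The genes in which replicate 1 does not overlap with the rest were 6, and from 6 to 9 without one library. With only genes over 10 CPM they were 3, where 4 of the 6 were still tested. Nasvi2EG035729 was lost there under scaling factors computed on fewer genes. Shares of all tested genes were not computed without one library or over 10 CPM. The causes of the other shifts were not tested.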
